A study of Mus musculus with 16 samples.

Results

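Meiosis reduces the chromosome set of germ cells, and its early steps need a set of genes that most other cells keep silent. Dazl encodes an RNA-binding protein that licenses germ cells for the germ line programme, Stra8 is switched on by retinoic acid as germ cells enter meiosis, and Meioc encodes a protein that keeps germ cells in meiotic prophase. Sycp1, Sycp2, Sycp3 and Syce1 encode parts of the synaptonemal complex, the protein ladder that holds paired chromosomes together, Hormad1 marks the chromosome axis before the ladder closes, and Smc1b and Rec8 encode subunits of the meiotic form of cohesin, the ring that holds sister chromatids. Several genes of this kind have CpG-rich promoters that are methylated in somatic cells and in mouse embryonic stem cells (mESCs) grown in serum.

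The 10 genes were taken as every non-control array probe whose RefSeq accession belongs to Dazl, Stra8, Sycp1, Sycp2, Sycp3, Syce1, Hormad1, Smc1b, Rec8 or Meioc, which gave 13 probes of 10 genes, out of 28026 probes and 21154 genes named on the array. Hormad1 has 3 probes, Meioc has 2 and the other genes have 1 each. The selection rule uses names alone, although the genes were chosen with earlier results of these data known. Of the 10 genes, 9 were above background on all arrays of at least 1 group and were tested, and Sycp2 was above background on none of the 16 arrays. Sycp1 and the third Hormad1 probe entered the tests through TKO-serum alone, so that their calls for a higher signal in TKO-serum were favoured by the filter and are given as values only. In the comparisons of groups and of responses, counts are also given without these 2 probes where either of them adds a call. Signals of different probes are not compared with each other, since their brightness depends on the probe.

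The RNA came from 6 groups of mESCs, made up of 3 lines in 2 media. J1 is the wild-type line, from a male 129S4/SvJae embryo, and the other lines derive from it. TKO cells are triple knockouts without functional Dnmt1, Dnmt3a or Dnmt3b, the DNA methyltransferase genes. 3B3l cells, written 3B3-3l in the labels, are Dnmt3a/3b knockouts to which constitutively expressed Dnmt3b and its cofactor Dnmt3l were added as exogenous constructs. Serum cultures had 15% fetal calf serum and 500 U/ml LIF. The 2i cultures had been kept for 2 weeks in serum-free medium with 1 µM PD0325901, a MEK inhibitor, 3 µM CHIR99021, a GSK3 inhibitor, and 1000 U/ml LIF. The J1-serum cultures grew on SNLP feeder cells according to the methods, while TKO and 3B3l cultures had none. There were 4 arrays of J1-serum, 3 of J1-2i, 2 of TKO-serum, 3 of TKO-2i, 2 of 3B3l-serum and 2 of 3B3l-2i. Nothing in the labels says that arrays of a group came from separate cultures, so p-values measure the spread between these samples, which may be technical.

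Every value is the log2 signal of a probe minus that of the array's 75th percentile, and a difference of 1 is a 2-fold change. A gene was called when limma's adjusted p was at most 0.05 and the fold change at least 2. Between 39.7% and 49.0% of the spots of an array were above background. Dnmt1, which is deleted in TKO, lay between -1.70 and -1.42 on the 5 TKO arrays and between 1.61 and 2.45 on the 11 others. The 8 mESC markers were above background on every array of every group. Of 8 markers of late spermatocytes and spermatids, 4 to 6 were above background on no array of a group. The 16 arrays lay on 3 slides. Slide 1 held J1, TKO-serum and TKO-2i arrays, slide 2 held 1 array each of J1-serum, J1-2i and TKO-2i, and slide 3, with a later scan, held the 3B3l arrays together with replicate 1 of J1-serum. Comparisons of 3B3l with J1 in 2i and with TKO in either medium therefore have no array pair on a common slide, and slide and line cannot be told apart in them except through J1-serum replicate 1.

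The sequences before the start of Dazl, Stra8, Hormad1 and Sycp3 are printed because these genes moved differently between lines and media and differ in their CpG sites, at which the methyltransferases act. Each run is the 250 bases before the transcription start in RefSeq for assembly GRCm38.p6, 5' to 3' on the strand of the gene, with CpG dinucleotides in capitals. The windows are at chr17:50293621-50293870 on the minus strand for Dazl, chr6:34920698-34920947 on the plus strand for Stra8, chr3:95559427-95559676 on the plus strand for Hormad1 and chr10:88459337-88459586 on the plus strand for Sycp3.
Dazl: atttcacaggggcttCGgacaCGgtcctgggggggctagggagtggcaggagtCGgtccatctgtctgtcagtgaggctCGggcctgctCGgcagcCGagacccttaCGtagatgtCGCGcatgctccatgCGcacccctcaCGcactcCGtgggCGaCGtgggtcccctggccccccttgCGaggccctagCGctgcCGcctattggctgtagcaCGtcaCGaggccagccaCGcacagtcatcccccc
Stra8: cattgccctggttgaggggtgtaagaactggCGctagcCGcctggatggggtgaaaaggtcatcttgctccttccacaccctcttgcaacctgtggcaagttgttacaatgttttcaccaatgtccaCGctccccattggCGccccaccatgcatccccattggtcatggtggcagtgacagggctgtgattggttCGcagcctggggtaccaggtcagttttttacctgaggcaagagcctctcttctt
Hormad1: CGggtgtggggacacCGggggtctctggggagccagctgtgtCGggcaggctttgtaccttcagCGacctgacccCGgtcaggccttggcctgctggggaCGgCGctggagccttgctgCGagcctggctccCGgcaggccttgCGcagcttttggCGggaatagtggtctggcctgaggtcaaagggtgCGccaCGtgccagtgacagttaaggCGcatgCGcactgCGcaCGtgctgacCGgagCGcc
Sycp3: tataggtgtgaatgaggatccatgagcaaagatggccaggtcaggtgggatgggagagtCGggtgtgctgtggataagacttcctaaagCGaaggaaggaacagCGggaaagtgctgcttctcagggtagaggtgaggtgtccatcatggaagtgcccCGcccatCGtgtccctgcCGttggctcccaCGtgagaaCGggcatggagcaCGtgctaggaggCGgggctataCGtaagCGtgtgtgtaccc

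The Dazl window holds 20 CpG sites, the Hormad1 window 19, the Sycp3 window 12 and the Stra8 window 5. The median over 32851 windows of the same length was 6, and 17.9% of them held at least as many as that of Dazl, against 55.6% for Stra8. Among the remaining members Smc1b had 25 sites, Meioc 22, Sycp1 17, Syce1 13, Rec8 10 and Sycp2 7. The letters CACGTG, an E-box that reads the same on both strands, stood 57 and 20 bases before the start of Hormad1 and 64 and 43 bases before that of Sycp3, and once before Sycp1. These 3 of 10 genes compare with 6.02% of all windows. TCCCGC, part of the E2F consensus, was found on either strand for 5 of the 10 genes (Sycp3, Hormad1, Smc1b, Rec8 and Meioc) and in 16.9% of all windows. AGGTCA, the core element bound by nuclear receptors, the family of the retinoic acid receptors, stood 194 and 38 bases before the start of Stra8, was found for 3 of the 10 genes and in 14.0% of all windows. The motifs were searched on both strands and no match overlapped another, and a match is a stretch of letters and not a measured site. DNA methylation at these windows is not analysed here.

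In J1 cells 2i raised Dazl and Hormad1 and lowered Stra8, Meioc, Sycp3, Smc1b and Sycp1. This made 7 of the 9 tested members, against 25.2% of all tested genes called in that comparison. Sycp1 was not above background in either group, so its call describes signals at background, and without it 6 of 8 were called. In TKO cells Dazl rose, while Stra8, Meioc, Smc1b, Sycp1 and Hormad1 fell, so that 6 of 9 were called against 17.6% of all genes. Hormad1 enters that count through its dimmest probe only, the third one, and without that probe and Sycp1 4 of 8 were called. In 3B3l cells 3 of 9 were called against 14.9% of all genes, with Dazl and Stra8 rising and Smc1b falling. Dazl and Smc1b were the members called in the same direction in all 3 lines. Stra8 was called in all 3 lines as well, but down in J1 and TKO and up in 3B3l.

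Between the lines in serum, TKO differed from J1 in 7 of 9 members against 19% of all genes, with Dazl, Hormad1, Syce1 and Sycp1 higher and Sycp3, Meioc and Rec8 lower in TKO. Without the probes that entered through TKO-serum alone it was 6 of 8, Sycp1 dropping out. 3B3l-serum differed from J1-serum in 6 of 9 members against 22.5% of all genes, with Syce1 higher and Stra8, Sycp3, Meioc, Smc1b and Rec8 lower. 3B3l-serum differed from TKO-serum in 6 of 9 members against 12.5% of all genes, and was the lower group in each of the 6 (Dazl, Stra8, Sycp1, Hormad1, Smc1b and Meioc). Meioc enters only through its second probe, which was tested through J1-serum and TKO-serum alone, and without that probe and Sycp1 4 of 8 were called. In 2i the TKO line differed from J1 in Dazl and Sycp3, which is 2 of 9 members against 8.48% of all genes. 3B3l-2i differed from J1-2i in 6 of 9 members against 16.8%, or in 5 of 8 without Sycp1. Sycp1 and the second probe of Meioc were at background in both groups. This left 4 genes above background in at least 1 of the 2 groups, namely Stra8 and Syce1 (higher) and Hormad1 and Smc1b (lower). Smc1b was not above background in 3B3l-2i, so its difference is a bound. 3B3l-2i differed from TKO-2i in 5 of 9 members against 11.8%, with Stra8, Sycp3 and Meioc higher and Dazl and Smc1b lower. Responses to 2i were also set against each other. That of TKO differed from that of J1 in 4 of 9 members against 17.4% of all genes. That of 3B3l differed in 7 of 9 against 19.8%, or in 6 of 8 without Sycp1, which was at background in these groups. The 6 include Smc1b, which was not above background in 3B3l-2i. Its difference was as small as -0.29 in the alternatives tried, without a call. The comparisons that involve J1 share its arrays, as do those that involve TKO or 3B3l. The median of all probes was shifted by 0.15 between 3B3l-serum and J1-serum and by 0.11 between 3B3l-serum and TKO-serum, and by less than 0.1 in the other comparisons of lines or media.

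**Figure D1:**
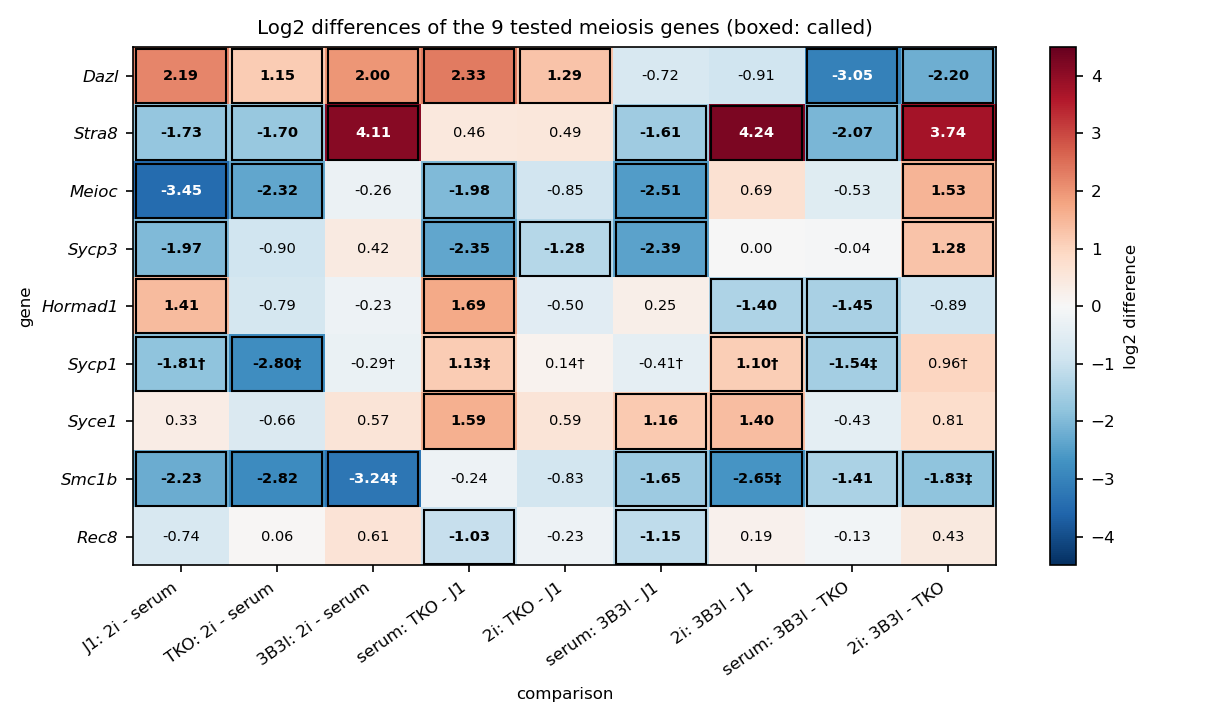
Log2 differences of the leading probe of the 9 tested meiosis genes (rows) in 9 comparisons (columns), as colour and number. Boxes mark calls (adjusted p at most 0.05 and fold at least 2), † marks differences in which neither group was above background and ‡ those in which 1 group was not. Dazl is positive in all 3 responses to 2i, and Stra8 turns from -1.73 in J1 and -1.70 in TKO to 4.11 in 3B3l.

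Dazl was above background on all 16 arrays. The signals were -0.06, 0.56, 0.55 and 0.62 on the 4 J1-serum arrays and 2.53, 2.39 and 2.88 on the 3 J1-2i arrays. Serum arrays of TKO gave 3.00 and 2.49, and those in 2i gave 3.87, 3.82 and 3.99. The 3B3l arrays gave -0.42 and -0.20 in serum and 1.55 and 1.83 in 2i. Serum and 2i did not overlap in any line. The groups rose in the order 3B3l-serum, J1-serum, 3B3l-2i, then J1-2i and TKO-serum, whose values overlapped, and TKO-2i at the top.

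Dazl rose in 2i by 2.19 in J1 (adjusted p = 6.57e-07 by limma, SE 0.19), by 2.00 in 3B3l (adjusted p = 4.73e-05, SE 0.24) and by 1.15 in TKO (adjusted p = 0.00138, SE 0.22). Within single slides the J1 value was 2.13 and 1.84, the TKO value 1.16 and the 3B3l value 2.00. The TKO response minus that of J1 was -1.04 (SE 0.29, adjusted p = 0.0181), a difference that lost its call with the slide as a block (-0.84), without J1-serum replicate 1 (-0.88), without J1-2i replicate 3 (-0.90) and without TKO-serum replicate 1 (-0.79). The TKO response itself came to 0.89, under 2-fold, without TKO-serum replicate 2. The 3B3l response differed from that of J1 by -0.19 (SE 0.30, adjusted p = 0.699).

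TKO cells had more Dazl signal than J1 cells in both media, by 2.33 in serum (SE 0.21, adjusted p = 2.48e-06) and by 1.29 in 2i (SE 0.20, adjusted p = 0.00051). 3B3l cells had less than TKO cells, with differences of -3.05 in serum (adjusted p = 2.35e-06) and -2.20 in 2i (adjusted p = 1.44e-05), which with the slide as a block became -2.37 and -1.56, both still called. Against J1 the 3B3l values were -0.72 in serum and -0.91 in 2i, neither reaching 2-fold. With the slide as a block these became -0.25 and -0.28. The 2i difference passed 2-fold, and with it the threshold, with quantile normalization (-1.00), in the authors' table (-1.00), without J1-2i replicate 2 (-1.02) and without 3B3l-2i replicate 2 (-1.05). Replicate 1 of J1-serum, which shares the slide of the 3B3l arrays, had the lowest Dazl signal of its group.

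Stra8 was also above background on every array. J1-serum arrays read 1.13, 1.25, 0.85 and 1.09, and J1-2i arrays -0.81, -0.63 and -0.53. TKO-serum arrays read 1.30 and 1.79, and TKO-2i arrays 0.07, -0.13 and -0.42. The 3B3l-serum arrays read -0.45 and -0.61, and the 3B3l-2i arrays 3.35 and 3.82. The 2 arrays of 3B3l-2i stood above all 14 others, whereas 3B3l-serum lay inside the range of J1-2i or next to it.

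When cells were moved to 2i, Stra8 fell by 1.73 in J1 (adjusted p = 1.85e-06 by limma, SE 0.16) and fell by 1.70 in TKO (adjusted p = 2.11e-05, SE 0.20). In 3B3l it rose by 4.11 (SE 0.21, adjusted p = 2.97e-08), which is 17.3-fold, with all 4 arrays on 1 slide. The 3B3l response differed from that of J1 by 5.85 (SE 0.27, adjusted p = 2.95e-08), and the TKO response differed from it by 0.03 (SE 0.26, adjusted p = 0.946). In serum 3B3l differed by -1.61 from J1 (-1.66 from the J1-serum array on the same slide) and by -2.07 from TKO, and in 2i it was 4.24 above J1 and 3.74 above TKO. TKO and J1 differed by 0.46 in serum and 0.49 in 2i, with adjusted p of 0.0663 and 0.0603. Over the alternatives tried, the increase in 3B3l stayed between 3.84 and 4.34.

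**Figure D2:**
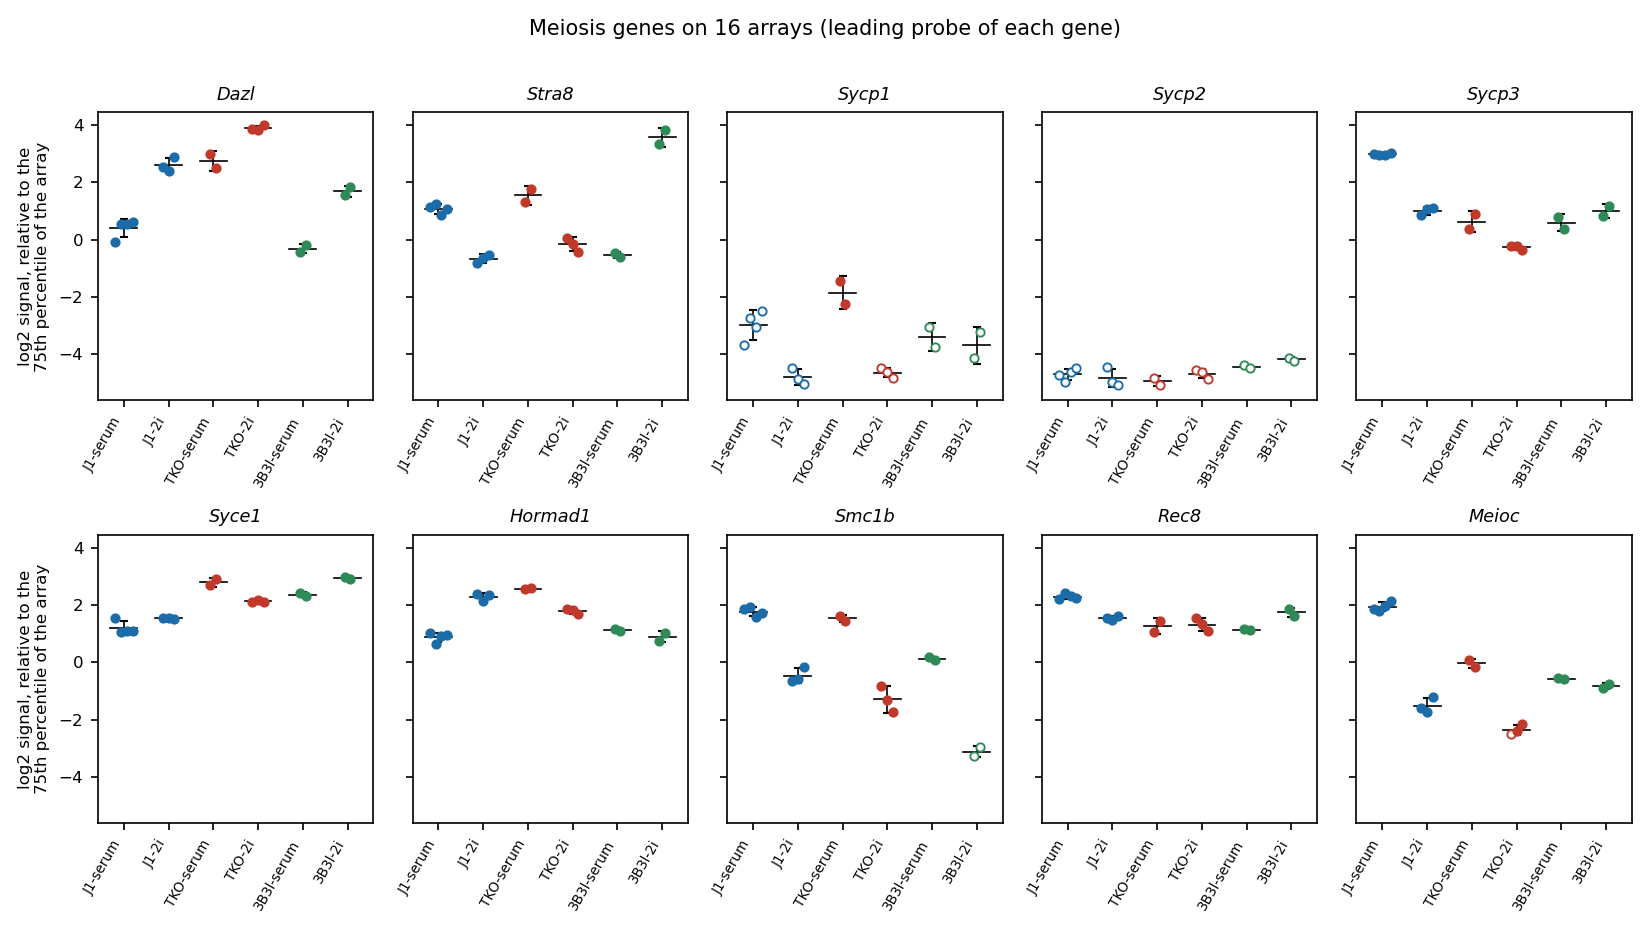
Signal of the leading probe of each meiosis gene on every array (log2, with 0 at the array's 75th percentile). Each dot is 1 array, filled where the probe was above background and open where it was not; the line and bar are mean and SD of the group. Stra8 stands apart in 3B3l-2i (3.35 and 3.82), Sycp3 in J1-serum (2.96 to 3.02), and Sycp2 is open throughout.

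Meioc had the largest response among the members in J1. Its leading probe read 1.86, 1.80, 1.95 and 2.14 in J1-serum and -1.59, -1.73 and -1.21 in J1-2i. In TKO it read 0.08 and -0.16 in serum and -2.52, -2.40 and -2.16 in 2i, the first of these 3 not above background. In 3B3l it read -0.55 and -0.59 in serum and -0.91 and -0.75 in 2i. J1-serum was above every other array, and the serum and 2i arrays of 3B3l lay close together without overlapping.

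Meioc fell by 3.45 in J1-2i against J1-serum (adjusted p = 7.77e-10 by limma, SE 0.14) and fell by 2.32 in TKO (adjusted p = 2.96e-07, SE 0.17). In 3B3l the difference was -0.26 (SE 0.18, adjusted p = 0.376). The responses of TKO and 3B3l differed from that of J1 by 1.13 (adjusted p = 0.00191) and 3.20 (adjusted p = 7.79e-07). The smaller of these lost its call with array medians as the scale (1.00) and with the replicate block (0.97). In serum the difference from J1 was -1.98 for TKO and -2.51 for 3B3l, and in 2i 3B3l was 1.53 above TKO (adjusted p = 2.48e-05). The second Meioc probe, which was tested through J1-serum and TKO-serum alone and so gives values without support, was at least 12.5-fold lower in J1-2i than in J1-serum and at least 3.29-fold lower in TKO-2i than in TKO-serum, where the 2i groups were not above background and the folds are lower bounds.

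Sycp3 encodes the main lateral element of the synaptonemal complex. It read 2.98, 2.96, 2.96 and 3.02 on the J1-serum arrays and 0.85, 1.06 and 1.11 on the J1-2i arrays. TKO arrays read 0.37 and 0.89 in serum and -0.21, -0.22 and -0.37 in 2i. 3B3l arrays read 0.80 and 0.38 in serum and 0.84 and 1.17 in 2i. J1-serum was above all other arrays, TKO-2i was below them, and the remaining 4 groups lay between 0.37 and 1.17.

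In 2i Sycp3 fell by 1.97 in J1 (adjusted p = 1.34e-07 by limma, SE 0.14). The change was -0.90 in TKO (adjusted p = 0.00109, under 2-fold) and 0.42 in 3B3l (adjusted p = 0.13). Both of these responses differed from that of J1, by 1.07 in TKO (adjusted p = 0.00302) and by 2.39 in 3B3l (adjusted p = 9.45e-06). The TKO difference lost its call with array medians (0.94), without J1-2i replicate 1 (1.00) and without TKO-serum replicate 1 (0.81). In serum the difference of Sycp3 from J1 was -2.35 in TKO and -2.39 in 3B3l, with adjusted p of 2.31e-07 and 1.59e-07. In 2i TKO was also below J1 (-1.28, adjusted p = 6.26e-05), while 3B3l and J1 differed by 0.00 (SE 0.17). Sycp2, the partner of Sycp3 in the lateral element, lay between -5.06 and -4.11 on the 16 arrays and was never above background.

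J1-serum differed from the other groups also in markers of other cells. The 6 primitive endoderm markers were all above background on every J1-serum array, with a summed log2 level of 3.39 to 3.58, against 0.03 to 0.52 in TKO-serum, 0.32 to 0.33 in 3B3l-serum and -1.71 to -0.92 in the 2i groups of J1, TKO and 3B3l. Of 12 fibroblast markers, 10 were above background on all J1-serum arrays, with a summed level of 6.15 to 6.42 against 4.94 to 6.09 in the other groups. In TKO-serum, TKO-2i and 3B3l-serum 8 of the 12 were above background on all arrays, in 3B3l-2i 7 and in J1-2i 5. Dcn and Postn, which fibroblasts make in quantity, were above background on no array of TKO or 3B3l, and Lum on none of the 16 arrays. Meioc, Sycp3, Smc1b and Rec8 had their highest group mean in J1-serum as well, and the part of such cells in that was not tested. In bulk RNA fewer cells of a type and less RNA per cell cannot be told apart.

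Hormad1 recruits the machinery of chromosome pairing to the unsynapsed axis. Its leading probe read 1.02, 0.65, 0.91 and 0.95 in J1-serum and 2.38, 2.13 and 2.36 in J1-2i. It read 2.56 and 2.59 in TKO-serum and 1.85, 1.83 and 1.68 in TKO-2i. In 3B3l it read 1.16 and 1.09 in serum and 0.76 and 1.03 in 2i. TKO-serum was highest, followed by J1-2i and then TKO-2i, all without overlap, and J1-serum and both 3B3l groups formed the low end.

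In 2i Hormad1 rose by 1.41 in J1 (adjusted p = 2.82e-07 by limma, SE 0.11). The changes in TKO (-0.79, adjusted p = 0.000434) and 3B3l (-0.23, adjusted p = 0.296) did not reach a call. Both differed from the J1 response, by -2.20 in TKO (SE 0.17, adjusted p = 1.76e-06) and by -1.64 in 3B3l (SE 0.18, adjusted p = 2.54e-05). TKO-serum was 1.69 above J1-serum (adjusted p = 4.17e-07), while in 2i the same difference was -0.50, under 2-fold. 3B3l differed from TKO by -1.45 in serum (adjusted p = 1.36e-05) and from J1 by -1.40 in 2i (adjusted p = 6.14e-06).

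The other Hormad1 probes were called with the leading one in some comparisons but not throughout. For TKO-serum against J1-serum the second gave 1.17 (adjusted p = 0.0103), and the third, with J1-serum not above background, at least 2.30-fold. The difference between the TKO and J1 responses was called for the leading and the second probe, at -2.20 and -1.46. The third probe, which was tested only because it was above background in TKO-serum, gives no support to either comparison. The increase in J1 was called for the leading probe but not for the second (0.96). The 3B3l difference from the J1 response, -1.64 for the leading probe, was -0.12 for the second. The third probe was at background on all but 1 of the arrays in these comparisons and could not show either difference. For 3B3l-2i against J1-2i, where the leading probe gave -1.40, the second gave -0.77 (adjusted p = 0.0824) and was not called. It read -0.47 and 1.12 on the 2 arrays of 3B3l-2i, a gap wider than any other within a group for the members above background.

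**Figure D3:**
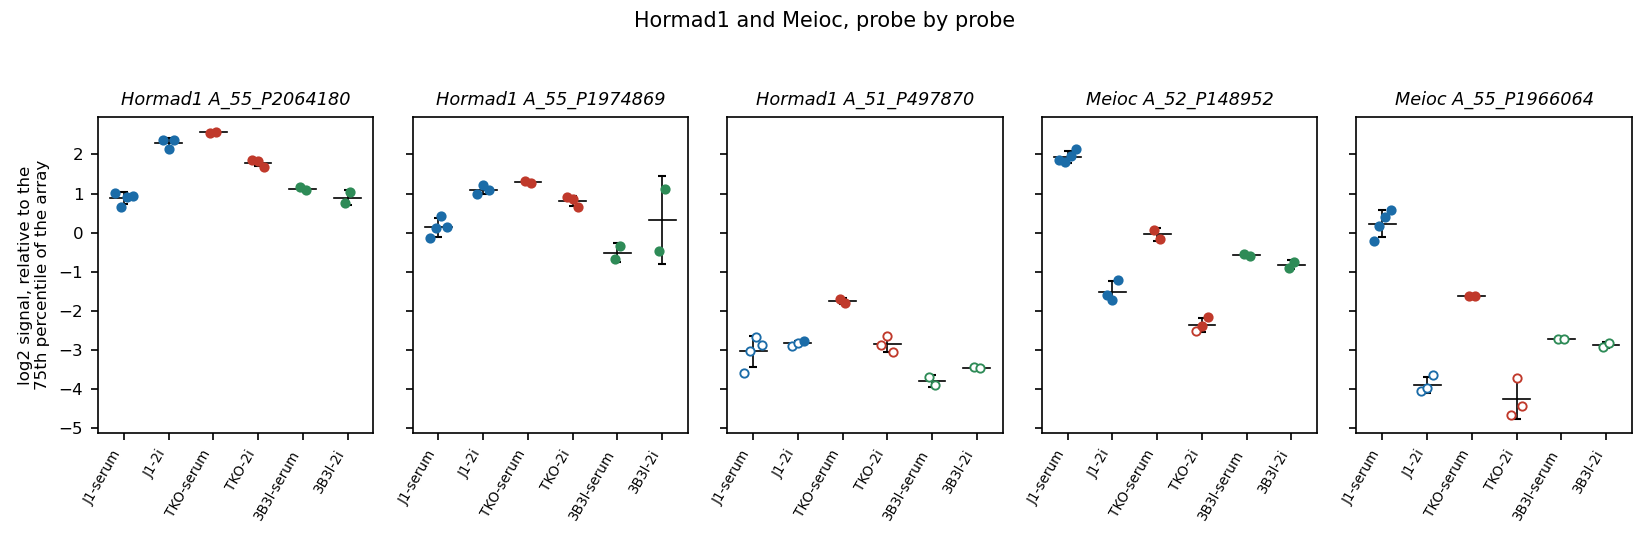
Every probe of Hormad1 (3 panels) and Meioc (2 panels) on each array, in log2 signal with 0 at the array's 75th percentile, with dots filled where above background and bars giving mean and SD. All Hormad1 probes are highest in TKO-serum and both Meioc probes in J1-serum, while the third Hormad1 probe is above background on both TKO-serum arrays and on 1 further array only.

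Sycp1 encodes the rungs of the synaptonemal complex. Its probe was above background on the 2 TKO-serum arrays alone, at -1.44 and -2.24. On the other 14 arrays it lay between -5.02 and -2.47 without being above background. TKO-serum was at least 2.17-fold above J1-serum, at least 2.84-fold above TKO-2i and at least 1.48-fold above 3B3l-serum. Because the probe was tested only for being above background in TKO-serum, no p is given for these values. The fitted difference from 3B3l-serum (-1.54) lost its call with normexp (-0.71), with the slide as a block (-0.65), without TKO-serum replicate 1 (-1.14) and without 3B3l-serum replicate 2 (-1.20). The fitted difference between TKO-serum and J1-serum (1.13) fell under 2-fold with the slide as a block (0.93), with normexp (0.67), without J1-serum replicate 1 (0.91) and without TKO-serum replicate 1 (0.73).

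Syce1, a part of the central element, was above background throughout. J1-serum arrays read 1.55, 1.07, 1.10 and 1.09 and J1-2i arrays 1.54, 1.54 and 1.53. TKO arrays read 2.68 and 2.90 in serum and 2.11, 2.19 and 2.09 in 2i, and 3B3l arrays 2.43 and 2.30 in serum and 2.97 and 2.90 in 2i. Every array of TKO and 3B3l was above every J1 array. The responses to 2i, all under 2-fold, were 0.33 (J1), -0.66 (TKO) and 0.57 (3B3l). The TKO response minus that of J1 was -1.00 (SE 0.18, adjusted p = 0.00131), just under 2-fold, and was called with array medians (-1.13), with the slide as a block (-1.11) and without J1-serum replicate 1 (-1.11), J1-2i replicate 3 (-1.00), TKO-serum replicate 1 (-1.10) or TKO-2i replicate 2 (-1.02). TKO-serum was above J1-serum by 1.59 (SE 0.13, limma adjusted p = 1.1e-06). 3B3l was above J1 by 1.16 in serum (adjusted p = 1.27e-05) and 1.40 in 2i (adjusted p = 9.4e-06), which with the slide as a block became 0.82 and 0.94 and was no longer 2-fold, as the serum value was not with normexp (0.99).

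Smc1b, the meiotic SMC1 subunit of cohesin, fell in 2i in every line. J1 arrays read 1.84, 1.91, 1.59 and 1.74 in serum and -0.66, -0.57 and -0.16 in 2i. TKO arrays read 1.62 and 1.44 in serum and -0.82, -1.31 and -1.74 in 2i. 3B3l arrays read 0.18 and 0.07 in serum and -3.26 and -2.97 in 2i, where the probe was not above background. Within each line all serum arrays were above all 2i arrays, and 3B3l was lowest in each medium.

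Smc1b fell by 2.23 in the J1 line (adjusted p = 7.63e-07 by limma, SE 0.19) and fell by 2.82 in TKO (adjusted p = 9.69e-07, SE 0.23). In 3B3l it was at least 5.44-fold (adjusted p = 9.66e-07). In serum 3B3l differed from J1 by -1.65 (adjusted p = 4.86e-05), and by -1.72 from the J1-serum array on its slide. It differed from TKO by -1.41 (adjusted p = 0.00136). In 2i it was at least 3.62-fold below J1 and at least 2.04-fold below TKO. TKO and J1 differed by -0.24 in serum (adjusted p = 0.435) and by -0.83 in 2i (adjusted p = 0.0117, under 2-fold).

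Rec8, the meiotic kleisin of cohesin, had the narrowest range of group means, 1.14 to 2.29, among the members whose leading probe was above background on all arrays. J1 arrays read 2.19, 2.41, 2.30 and 2.25 in serum and 1.56, 1.48 and 1.62 in 2i. TKO arrays read 1.07 and 1.46 in serum and 1.54, 1.33 and 1.09 in 2i, and 3B3l arrays 1.15 and 1.12 in serum and 1.86 and 1.63 in 2i. J1-serum was above all other arrays, and the other arrays lay between 1.07 and 1.86. In serum the difference of Rec8 from J1 was -1.15 in 3B3l (limma adjusted p = 2.48e-05) and -1.03 in TKO (adjusted p = 7.91e-05), the latter falling under 2-fold with array medians (-0.98), with normexp (-0.95), without J1-serum replicate 2 (-0.99) and without TKO-serum replicate 1 (-0.83). The 2i responses of -0.74 (J1), 0.06 (TKO) and 0.61 (3B3l) were all under 2-fold, and those of 3B3l and J1 differed by 1.34 (adjusted p = 0.00034).

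The members that were higher in TKO-serum than in J1-serum had 13 to 20 CpG sites before their start (Syce1, Hormad1 and Dazl, with Sycp1, whose call the filter favoured, at 17), and those that were lower had 10 to 22 (Rec8, Sycp3 and Meioc). Smc1b with 25 sites and Stra8 with 5 were not called in that comparison. The ranges overlapped, and the number of sites did not order the members by their difference between the lines.

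A list of 37 other meiosis genes, with 34 on the array and 27 tested, moved in both directions. In J1 cells in 2i 6 rose and 6 fell (5 and 6 of 26 without the probes that entered the tests through a single group), against 25.2% of all genes called, with a median of 0.25 against 0.05 over all genes. Syce3 (-3.95), a central element gene, and Meiob (-2.94), which binds single-stranded DNA in recombination, fell the furthest, and Msh4 (2.14), a mismatch repair homologue needed for crossovers, rose. 4930447C04Rik, the gene of the central element protein SIX6OS1, fell by 1.98. In TKO 1 rose and 6 fell, against 17.6% of all genes (median -0.23 against 0.07), with Syce3 at least 19.6-fold lower, 4930447C04Rik at -3.44, Iho1 at least 4.35-fold lower and Mei4 at least 3.02-fold lower. Iho1 and Mei4 act in the making of meiotic DNA breaks. In 3B3l 4 rose and 3 fell (3 and 3 of 26 without such probes), against 14.9% of all genes (median -0.23 against 0.00), with 4930447C04Rik (-2.32), Syce3 (-2.17) and Dmc1, the meiotic recombinase (at least 2.34-fold by its leading probe), being those that fell. These 3 genes were called down in all 3 lines, as Smc1b was.

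Between TKO and J1 in serum 2 of these 27 genes were higher and 2 lower, against 19% of all genes, with Mei4 at least 3.40-fold higher in TKO, Trip13, an ATPase that remodels HORMA proteins, 1.04 higher, and with Dmc1 (-1.67) and Meiob (-1.41) lower. In 2i none was higher and 6 were lower in TKO, against 8.48% of all genes, among them Dmc1 (at least 3.28-fold by its leading probe), Iho1 (at least 1.83-fold) and Tex14 (-1.19). Spo11, the enzyme that cuts DNA to start meiotic recombination, was not above background on any array. Of 12 subunits and regulators of the mitotic cohesin, all were above background on every array, 1 was called in J1 in 2i and none in TKO or 3B3l, against 25.2%, 17.6% and 14.9% of all genes. Of 13 tested subunits of PRC1.6, a repressor complex known to act on germ line genes, 3 rose and 1 fell in J1, a share near the 25.2% of all genes called there, and none was called in TKO or 3B3l in response to 2i, against 17.6% and 14.9% of all genes.

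**Figure D4:**
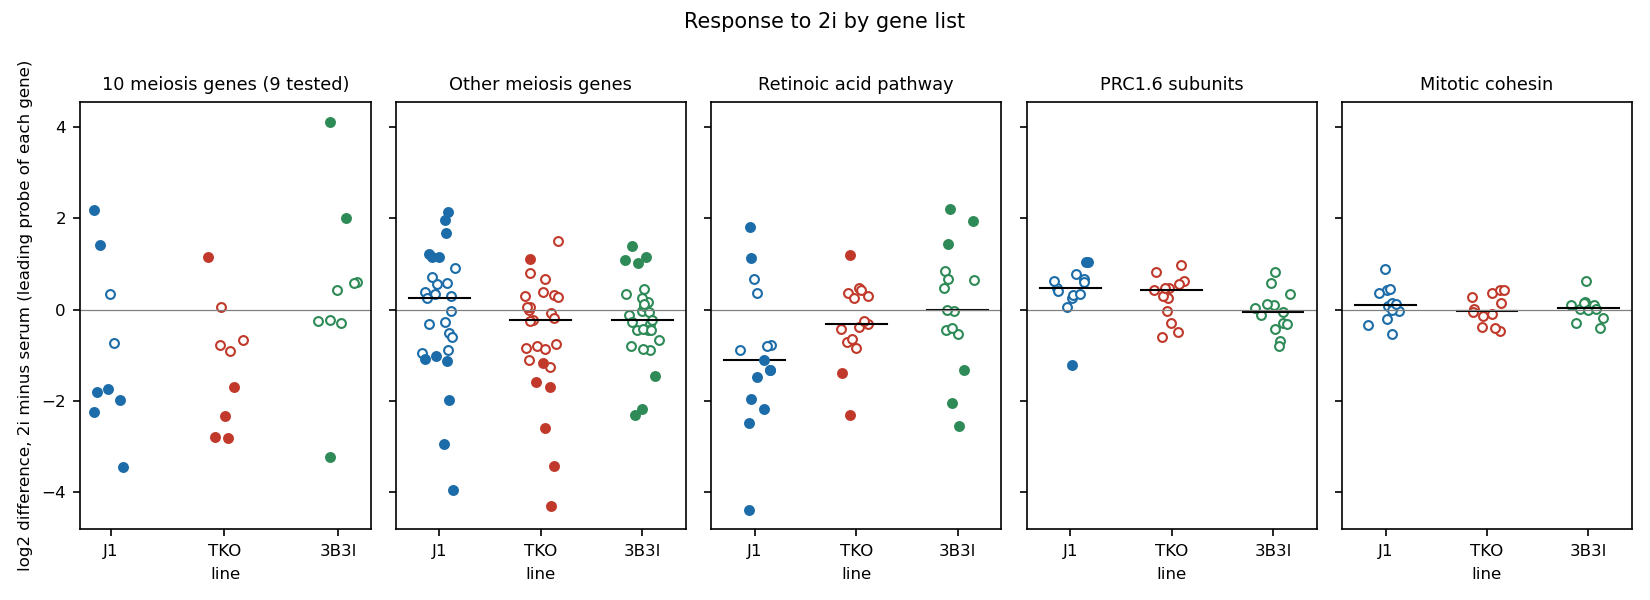
Log2 difference between 2i and serum in each line for the tested meiosis genes and for 4 lists of other genes, 1 dot per gene by its leading probe, filled where called. Black lines are list medians, drawn for the 4 lists only. The median of the retinoic acid genes is -1.11 (J1), -0.31 (TKO) and -0.01 (3B3l), and the medians of the mitotic cohesin genes lie near 0.

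Stra8 is a target of retinoic acid in germ cells, and 15 genes of that pathway were all tested. Of these, Rarb was tested through 3B3l-2i alone and Cyp26b1 through J1-serum alone, which favours calls for a higher signal in those groups. In J1 cells in 2i 2 rose and 8 fell (2 and 6 of 13 without that pair), against 25.2% of all genes, with a median of -1.11 against 0.05 over all genes. In the same comparison 8 of the 10 tested fibroblast markers fell (7 of 9 without probes tested through a single group, median -4.25). All 6 primitive endoderm markers fell (2 of 2 without such probes, median -4.56). Dab2, Foxa2, Pdgfra, Sox7 and Dcn were tested through J1-serum alone, which favours calls for a higher signal there. Several of the markers were at background in J1-2i, so the medians include such values. The part of these markers in the fall of the retinoic acid genes was not tested. Among the genes that fell were Cyp26a1 (at least 11.5-fold) and Cyp26b1 (at least 2.78-fold), whose enzymes break down retinoic acid and are induced by it. Stra6, the receptor for retinol uptake, fell at least 3.84-fold. Crabp2, a binding protein that carries retinoic acid to the nucleus, fell by 1.95. Cyp26a1, Cyp26b1 and Stra6 were not above background in J1-2i, so these decreases are not ranked. In TKO 1 rose and 2 fell against 17.6% of all genes (median -0.31 against 0.07). In 3B3l 3 rose and 3 fell (2 and 3 of 13 without that pair) against 14.9% of all genes (median -0.01 against 0.00). There Dhrs3 rose by 1.94, Rdh10, which makes retinal, fell by 2.55, and Cyp26a1 was at least 2.72-fold lower. Rarb, a retinoic acid receptor and itself a direct target, had a signal at least 2.04-fold higher in 2i, a value that the filter favoured.

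In 2i 8 retinoic acid genes were higher and 2 lower in 3B3l than in J1 (7 and 2 of 13 without Rarb and Cyp26b1), against 16.8% of all genes, with a median of 1.13 against 0.09. Rarb was at least 4.08-fold higher, and Rarg, another retinoic acid receptor, 2.47 higher on the log2 scale. Of the 8, Stra6 and Cyp26a1 were at background in both groups. Rarb was above background on no array outside 3B3l-2i and was tested for that reason alone, so that its higher signal there gives no support. Against TKO-2i 8 were higher and 1 lower (7 and 1 of 13 without that pair), against 11.8% of all genes, with Rarb at least 3.81-fold higher and Dhrs3 1.87 higher on the log2 scale. Aldh1a2, which makes retinoic acid, and Cyp26a1, Cyp26b1 and Stra6 were above background on no array of 3B3l-2i. The responses of 3B3l and J1 differed in 13 of the 15 genes, 10 of them upward (8 up and 3 down of 13 without that pair), against 19.8% of all genes. The fibroblast markers differed the same way in 8 of 10 genes (7 of 9 without probes tested through a single group, median 1.90). The primitive endoderm markers did so in 6 of 6 (2 of 2 without such probes, median 3.83). The probes left out were tested through J1-serum alone, which favours this direction, and were at background in both 3B3l groups. The part of these markers in the difference was not tested.

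Over the means of the 6 groups, the tested probes of other named genes most like Dazl were those of Timm29 (Pearson r 0.999), Zfp941 (0.996), Fuca1 (0.996), Fkbp6 (0.995) and Zfp386 (0.990), whose group means spanned 1.07, 1.91, 0.49, 4.38 and 1.78 on the log2 scale. Those most like Stra8 were Cenpx (0.989), E330014E10Rik (0.971), Mtnr1a (0.969), Gm14015 (0.960) and Zmym5 (0.950), spanning 0.39, 2.73, 1.82, 1.34 and 0.28. With 6 points and 17849 named probes such values are a description only. Within the members the leading probes of Meioc and Sycp3 had an r of 0.89, as had those of Rec8 and Sycp3, and Dazl and Hormad1 had 0.68. All these values share the same arrays and the same scale.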

How the data were processed

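RNA of 16 mESC samples was hybridised to 1-colour Agilent 8x60K mouse arrays. Per the file headers, spots were read with Agilent Feature Extraction 11.5.1.1, and the processed signal in the deposited files is an intensity, background-subtracted and detrended but not normalized between arrays. The flags and the median signal and background intensities come from the same deposited files. A log2 table of 30170 probes by the authors, normalized between arrays, served as an alternative only. In 13 of its 16 columns the closest array was another replicate of the named group, never of another group (lowest best r 0.998).

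From the log2 processed signal the array's 75th percentile was subtracted, taken over non-control spots. Non-uniform and outlier spots were left out and spots of a probe were averaged. Signal over background takes the place of depth, the 75th percentile lay between 1019 and 1797 intensity units, and the number of arrays limits the precision. No member was saturated. A probe was above background on an array when the software called at least 50% of its spots well above background, and it was tested when that held on every array of at least 1 group (27126 probes, 13917 named genes, 888 probes with a missing value, none of them of the members). Symbols came from RefSeq accessions matched to a GRCm38.p6 gene table. The array's own grid was built on another assembly, so gene coordinates other than those of the printed windows are not given.

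All 6 group means were fitted in 1 model with limma 3.58.1 (R 4.3.3, lmFit and eBayes), two-sided, with Benjamini-Hochberg adjustment over all tested probes. A gene counted as called when 1 of its probes reached a 2-fold change with an adjusted p no higher than 0.05. The leading probe of a gene had the highest mean over all arrays. Bounds ("at least") set the mean of the brighter group against the mean, over the arrays of the dimmer group, of the higher of the dim probe's own signal and the lowest signal above background on that array. The steps were tested on simulated data with 200 changed probes. The 25 alternatives comprised scaling, background correction by normexp, filters, fold limit, slide, replicate number, the authors' table and each array left out. Of each other list, genes called in the comparison described were named, at most 4 with the largest differences, and any further gene was named after its values were seen. Some genes that this rule would name are not reported here. For Dazl and Stra8 the 5 most alike genes were named. The members, lists and tests were chosen with earlier results of these data known.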

Additional observations from a re-analysis of the deposited data

Results flagged for a closer look

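In groups of 4 arrays, 2 values stood far from the rest. J1-serum replicate 1 had Dazl at -0.06 against 0.55 to 0.62, a gap of 0.902 of the group's range, and Syce1 at 1.55 against 1.07 to 1.10, a gap of 0.938. This array is the J1 array on the slide of the 3B3l arrays. Chance flags about 1 in 20 groups for each probe examined. J1-serum was the only group large enough to be examined, and it was examined for more than 1 probe. Both flags fall on the same array and are not independent of each other.

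The response to 2i differed between lines by limma's test of the difference for 8 members. Against J1, the TKO response differed for Dazl (-1.04, adjusted p = 0.0181), Sycp3 (1.07, adjusted p = 0.00302), Hormad1 (-2.20, adjusted p = 1.76e-06) and Meioc (1.13, adjusted p = 0.00191). The 3B3l response differed for Stra8 (5.85), Sycp3 (2.39), Hormad1 (-1.64), Rec8 (1.34) and Meioc (3.20), with adjusted p between 2.95e-08 and 0.00034. It also differed for Sycp1 (1.51, adjusted p = 0.0459) and Smc1b (-1.00, adjusted p = 0.0328). The Sycp1 probe was not above background in any of the 4 groups compared and was tested through TKO-serum alone. The Smc1b probe was not above background in 3B3l-2i. In 8 alternatives other than leaving out an array, the Smc1b call was lost in 5 and the Sycp1 call in 6. With single arrays left out the differences ran from -1.15 to -0.85 for Smc1b and from 1.06 to 1.97 for Sycp1. Members called were 4 of 9 in the TKO comparison against 17.4% of all genes. In the 3B3l comparison they were 7 of 9 against 19.8%, or 6 of 8 without Sycp1.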

How the results depend on the processing

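Of 2431 values recomputed for single members, 2336 kept their direction and side of the threshold, 60 lost their call, 35 gained one and 0 turned direction while called. With only probes above background on all 16 arrays, 6 members were tested and the members called were 4 in J1 in 2i (15.6% of all genes under that filter), 2 in TKO in 2i (10.5%), 3 for 3B3l against J1 in 2i (10.3%), 3 for 3B3l against TKO in serum (6.99%) and in 2i (6.59%), and 4 for the difference between the 3B3l and J1 responses (13.7%), since fewer genes were tested. With no fold limit they were 5 in 3B3l in 2i (34.3% of all genes), 6 for TKO against J1 in 2i (29.5%) and 8 for 3B3l against TKO in 2i (37.2%). From the authors' table they were 4 for the 3B3l and J1 responses (20% of all genes), and the cause was not tested. The Smc1b difference between those responses (-1.00) lost its call in several alternatives, down to -0.29 with normexp, as did that of Sycp1 (1.51), down to 0.86. Leaving out single arrays gave 7 calls in J1 in 2i throughout (24.5% to 25.8% of all genes) and 5 to 7 for TKO against J1 in serum (17.5% to 21.3%). Leaving out an array of a pair leaves a lone array, which is assumed to vary like the other groups. Correlations of same-numbered deviations ran from -0.27 to 0.29. In groups of 2 arrays the deviations mirror each other, so these correlations cannot decide whether replicate numbers paired the samples. With the replicate block 7 members were called in J1 (24.8% of all genes), 6 in TKO (17.6%) and 3 in 3B3l (14.8%) in 2i, as without it, and 5 for the 3B3l and J1 responses (19.3%). Levels near background, as of Sycp1 and Smc1b in 3B3l-2i, limit what the arrays can order.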

Other observations

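Of 7 genes that mark primordial germ cells, all were above background on every array of J1, TKO and 3B3l-serum, and 5 of 7 in 3B3l-2i, the group in which Stra8 was highest. Dppa3, a maternal factor of early embryos and germ cells, was at least 21.1-fold lower in 3B3l-2i than in 3B3l-serum (limma adjusted p = 1.46e-09), and Prdm1, a repressor that sets germ cell fate, was at least 1.99-fold lower (adjusted p = 0.00594). Neither was above background in 3B3l-2i. Ddx4, an RNA helicase of germ cells, fell in 2i by 2.07 in J1 and fell by 2.22 in TKO, while in 3B3l, where Stra8 rose, its difference was -0.58 (adjusted p = 0.0139, under 2-fold). Tfap2c, a transcription factor of germ cell specification, rose by 1.38 in J1 and was not called in TKO (-0.11) or 3B3l (-0.65). Nanos3 and Dnd1 were called in no line. Kit, the receptor for stem cell factor, rose in 2i in each line, as Dazl did, by 1.83 (J1), 2.18 (TKO) and 1.85 (3B3l).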
